A study of Mus musculus with 9 samples.

Results

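The Pacsin genes (also called syndapins) encode a family of 3 membrane-shaping proteins, Pacsin1, Pacsin2 and Pacsin3, of which 3 of 3 were found by symbol among the 47729 gene identifiers of the files and 3 of 3 passed the filter on low levels. They were chosen because Pacsin2 was much higher after deletion of TrkB in D1 medium spiny neurons, to be set beside its neuronal paralog Pacsin1. That choice used the comparison of TrkB-deleted mice with controls, so all Pacsin differences from control are given as descriptions, without a test.

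RNA was sequenced from HA-tagged polyribosomes precipitated out of dorsal striatum, with C57BL/6 background and age P28 in all mice and 3 libraries in each of 3 groups. The labels call them biological triplicates and do not say whether a library is 1 mouse, nor its sex. The first 2 groups had the genotype D1-Cre-flTrkB-RT, in which Cre under D1 dopamine receptor control both removes floxed TrkB, the receptor of brain-derived neurotrophic factor, and switches on the HA-tagged ribosomal protein of the RiboTag (RT) allele. One of them is labelled as showing stereotypy, an abnormal repetitive behavior, and the other as not showing it. The control group, D1-Cre-RT, carried Cre and the tag without the floxed allele. Cre and the tag were thus shared by all 9 libraries, and both are restricted to cells with a history of D1-Cre activity. No library of RNA before precipitation was analysed here, and the labels call the neurons enriched. A higher share of a cell type's RNA in the precipitate and more RNA of a gene per cell cannot be told apart in such libraries.

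PACSIN proteins belong to the F-BAR family. Their crescent-shaped F-BAR domain binds and curves membrane, and a carboxy-terminal SH3 domain binds dynamin, which cuts vesicles from the membrane, synaptojanin, which removes the coat, and N-WASP, which starts branched actin filaments through the Arp2/3 complex. Pacsin1 is the neuronal member and takes part in the retrieval of synaptic vesicle membrane and in neuronal morphology. Pacsin2 is found in most tissues and helps to shape caveolae and tubular recycling endosomes, while Pacsin3 is best known from muscle and lung.

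The windows around 1 annotated start of Pacsin2 and of Pacsin1 are shown because these paralogs stood at different levels relative to control. Both come from RefSeq on GRCm38.p6 and run 5′ to 3′ from 250 bases before the start to 50 after it. The Pacsin2 window is chr15:83464557-83464856 on the minus strand, and the Pacsin1 window is chr17:27684989-27685288 on the plus strand. Capitals mark exact matches, on either strand, to 7 short motifs.
Pacsin2: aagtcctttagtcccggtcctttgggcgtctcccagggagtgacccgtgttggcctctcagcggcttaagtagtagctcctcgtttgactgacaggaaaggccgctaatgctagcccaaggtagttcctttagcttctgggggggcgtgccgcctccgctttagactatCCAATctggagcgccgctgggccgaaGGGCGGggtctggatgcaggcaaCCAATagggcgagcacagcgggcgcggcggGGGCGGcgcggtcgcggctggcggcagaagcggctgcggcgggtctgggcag
Pacsin1: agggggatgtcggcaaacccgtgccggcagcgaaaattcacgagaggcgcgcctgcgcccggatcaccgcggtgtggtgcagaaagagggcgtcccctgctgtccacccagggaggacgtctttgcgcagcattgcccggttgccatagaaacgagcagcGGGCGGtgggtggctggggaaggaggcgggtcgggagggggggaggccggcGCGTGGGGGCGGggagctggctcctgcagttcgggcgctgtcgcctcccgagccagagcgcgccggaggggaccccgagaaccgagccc
The Pacsin2 window held 2 CCAAT boxes (CCAAT) and 2 GC boxes (GGGCGG). The Pacsin1 window held no CCAAT box, 2 GC boxes and 1 core motif of EGR factors (GCGTGGG), the last sharing 1 base with a GC box. A CCAAT box was present in 37.4% of the 32851 windows of this length in the RefSeq table, a GC box in 35.7% and the EGR motif in 5.04%. Neither window held the TATA box (TATAAA), the cAMP response element core (TGACGT), the ETS core (CGGAAG) or the AP-1 motif (TGACTCA), which were present in 13.6%, 7.51%, 16.9% and 5.2% of the windows. GC content was 65.3% in the Pacsin2 window and 71.7% in the Pacsin1 window. RefSeq gives 2 further starts for Pacsin2. The window at chr15:83432801-83433100 held 1 ETS core, and the window at chr15:83447831-83448130 held 1 CCAAT box and 1 AP-1 motif. The files do not show which start the RNA came from.

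The libraries held 27103152 to 31117135 reads with stereotypy, 35702420 to 40578512 without stereotypy and 32615356 to 36535817 in controls. All libraries with stereotypy thus held fewer reads than all others, and the part of depth in the comparisons was not tested. Ntrk2, the gene of TrkB, averaged 39.6 ± 4.85 CPM with stereotypy, 18.9 ± 4.67 CPM without stereotypy and 397 ± 84.8 CPM in controls (SD, n = 3 each), where CPM is a gene's reads scaled to the same total in each library. Over both TrkB-deleted groups limma gave a log2 change of -3.80 (SE 0.16, adjusted p = 1.7e-06). D1 medium spiny neuron markers were present throughout, and the dopamine receptor gene Drd1 averaged 887 CPM with stereotypy, 599 CPM without stereotypy and 805 CPM in controls. Markers of D2 neurons, cortical excitatory neurons, glia and vessels were also measurable, with none of the marker genes in the files at 0 in every library.

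Pacsin2 (ENSMUSG00000016664, GRCm38 chromosome 15, 83375607 to 83464606, minus strand) was higher in TrkB-deleted mice than in controls whether or not they showed stereotypy. Its level was 121, 113 and 113 CPM in the 3 libraries with stereotypy, 141, 127 and 138 CPM in the 3 without stereotypy and 65.7, 59.2 and 55.0 CPM in the 3 controls. All 6 libraries of the TrkB-deleted groups lay above all 3 controls, with no overlap between any of the 3 groups. The group means were 115.9 ± 4.66 CPM with stereotypy, 135 ± 7.27 CPM without stereotypy and 59.97 ± 5.43 CPM in controls (SD, n = 3 each), or 193% and 226% of the control mean in the TrkB-deleted groups. On the scale of log2(CPM + 1) the difference from control was 0.94 with stereotypy and 1.16 without (SE 0.09 each), which share the same 3 controls, and 1.05 (SE 0.08) for the mean of both groups. Leaving out any single library gave 0.99 to 1.12 for that mean. For background, 6.05% of the 13695 tested genes had all 6 TrkB-deleted libraries above all controls and 3.67% were called higher at an adjusted p under 0.05 (503 genes). A further 3.25% lay below all controls and 2.05% were called lower (281 genes), which makes 5.72% called in either direction. After rescaling by median-of-ratios factors the split was 391 higher and 361 lower, and edgeR called 340 higher and 389 lower. The difference of Pacsin2 from control was smaller than that of 67 of the 503 genes, a description only, since Pacsin2 was chosen for this difference.

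Each Pacsin2 value rested on 1793 to 5596 reads. The counting error was 1.34% to 2.36% of the value, against a spread between libraries of a group of 4.02% to 9.05% (SD over mean), so library differences rather than read number set the precision.

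Pacsin1 (ENSMUSG00000040276, chromosome 17, 27655509 to 27711482, plus strand), the neuronal paralog, averaged 84.9% of its control mean with stereotypy and 104% without. Its level was 324, 296 and 322 CPM with stereotypy, 392, 365 and 401 CPM without stereotypy and 308, 392 and 409.6 CPM in controls. The controls spanned nearly the whole range of the TrkB-deleted libraries, with control replicate 1 among the low values and the other controls among the high ones. Means were 314 ± 15.7 CPM with stereotypy, 386 ± 18.6 CPM without stereotypy and 369.9 ± 54.3 CPM in controls (SD, n = 3 each). The log2 difference from control was -0.23 with stereotypy and 0.07 without (SE 0.11 each), and -0.08 (SE 0.09) for the mean of both groups. Without control replicate 1 it was -0.20 for that mean, and without control replicate 3 its direction turned, at 0.0015. Leaving out 1 library gave -0.35 to -0.15 with stereotypy and -0.05 to 0.15 without.

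Pacsin3 (ENSMUSG00000027257, chromosome 2, 91255954 to 91264679, plus strand), the member best known from muscle, was the lowest of the family. It stood at 6.37, 5.33 and 4.21 CPM with stereotypy, 7.005, 7.23 and 12.8 CPM without stereotypy and 4.24, 4.95 and 8.62 CPM in controls. Both TrkB-deleted groups overlapped with the controls, and replicate 3 was the highest library both without stereotypy and in controls. Means were 5.30 ± 1.08 CPM with stereotypy, 8.999 ± 3.26 CPM without stereotypy and 5.94 ± 2.35 CPM in controls (SD, n = 3 each). The log2 difference from control was -0.10 with stereotypy and 0.53 without (SE 0.27 each). Leaving out 1 library gave -0.28 to 0.16 with stereotypy, turning to 0.16 without control replicate 3 and to 0.03 without stereotypy replicate 3. It gave 0.28 to 0.79 without stereotypy, the lowest without no stereotypy replicate 3. Its 114 to 518 reads per library gave a counting error of 4.39% to 9.37% of the value.

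**Figure D1:**
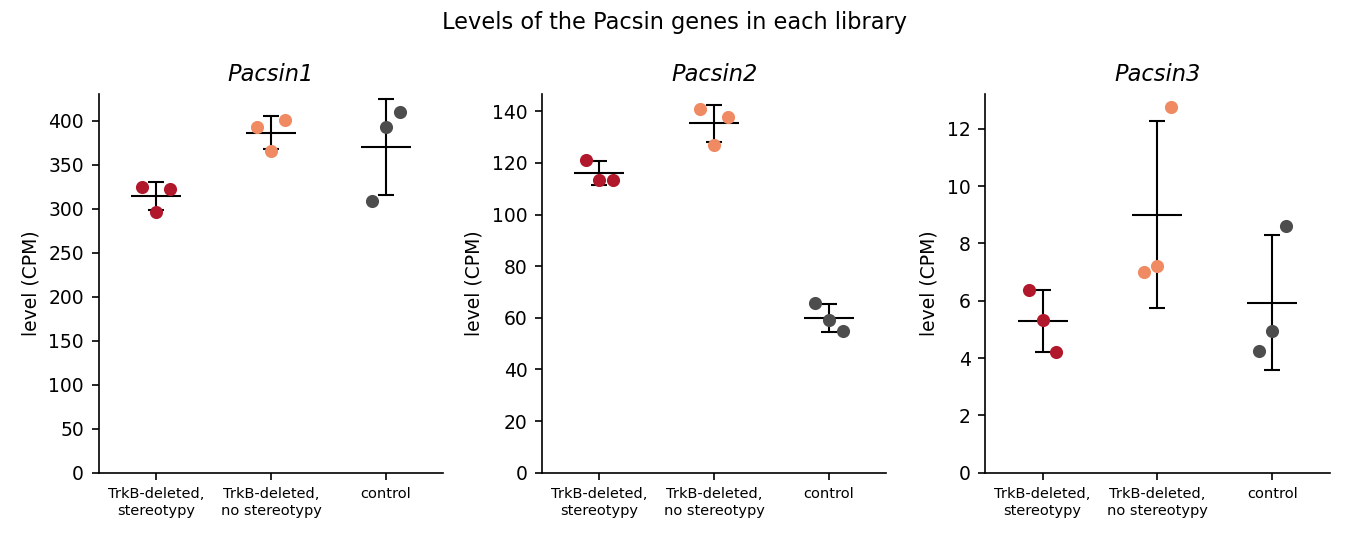
Levels of Pacsin1, Pacsin2 and Pacsin3 in CPM (vertical axes, each from 0) in the TrkB-deleted libraries with stereotypy, the TrkB-deleted libraries without stereotypy and the controls. Points are libraries, and horizontal marks with bars are means ± SD (n = 3). For Pacsin2 the 6 TrkB-deleted libraries lie between 113 and 141 CPM and the controls between 55.0 and 65.7 CPM, while for Pacsin1 the controls span 308 to 409.6 CPM.

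To compare the paralogs with each other, levels were divided by the summed length of each gene's annotated exons (6525, 4908 and 4327 bases for Pacsin1, Pacsin2 and Pacsin3). Pacsin1 then averaged 48.1, 59.2 and 56.7 CPM per kb with stereotypy, without stereotypy and in controls. Pacsin2 averaged 23.6, 27.6 and 12.2 CPM per kb in the same groups, and Pacsin3 1.23, 2.08 and 1.37 CPM per kb. Pacsin1 was thus the most abundant member in every library. Per length it exceeded Pacsin2 by 1.97 to 2.14 times with stereotypy and 2.10 to 2.19 times without, against 3.53 to 5.604 times in controls. Pacsin2 made up 31.5% to 33.1% of the summed family level with stereotypy, 30.4% to 31.7% without stereotypy and 14.75% to 21.75% in controls. The summed level was 73.0 ± 3.14 CPM per kb with stereotypy, 88.8 ± 4.69 without stereotypy and 70.3 ± 7.64 in controls (SD, n = 3 each), so the libraries without stereotypy, at 83.6 to 92.5, were the ones above all others. Among all tested genes ordered by level per kb, Pacsin2 stood above 83.9% of genes with stereotypy, 85.9% without stereotypy and 71.1% in controls, and Pacsin1 above 92.3%, 93.4% and 93.2%.

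**Figure D2:**
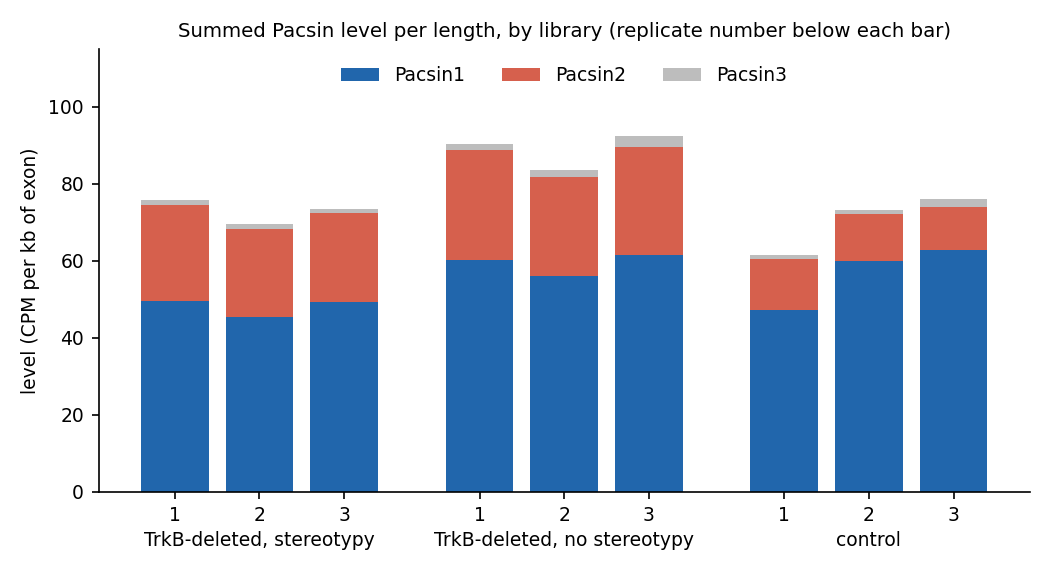
Levels per length of the 3 Pacsin genes, stacked, in CPM per kb of annotated exon (vertical axis) for each of the 9 libraries, grouped by condition with the replicate number under each bar. The Pacsin2 segment makes up 30.4% to 33.1% of the bar in the 6 TrkB-deleted libraries and 14.75% to 21.75% in the controls, and the Pacsin1 segment is the largest in every bar.

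The comparison of TrkB-deleted mice with and without stereotypy was not used to choose the genes and was tested. It asks what separates mice of the same genotype that differ in behavior. All 3 Pacsin genes were lower with stereotypy than without, with no overlap between the libraries of these groups, but 0 of 3 passed the threshold in limma (3 of 3 had an unadjusted p under 0.05, edgeR and DESeq2 called 0). For Pacsin1 the log2 change was -0.30 (95% interval -0.54 to -0.06, SE 0.11, adjusted p = 0.0985). For Pacsin2 it was -0.22 (95% interval -0.42 to -0.02, SE 0.09, adjusted p = 0.133). For Pacsin3 it was -0.63 (95% interval -1.22 to -0.04, SE 0.27, adjusted p = 0.143). In this comparison 17.5% of all tested genes were lower without overlap and 20.8% higher, 12.9% were lower at an unadjusted p under 0.05, and 10.2% passed the threshold, so the pattern of each member was a frequent one. Over the alternatives the adjusted p of Pacsin1 ranged from 0.0444 to 0.2501, and it passed only when control replicate 1 was left out.

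Markers of D1 neurons and of other cells differed between the groups with and without stereotypy as well. Of all tested genes limma called 6.61% higher and 3.6% lower in this comparison. A single call in a list of 6 or 7 markers lay near those shares. Summed D1 neuron markers spanned 2186 to 2246 CPM with stereotypy and 1481 to 1836 CPM without, and 1 of 7, Drd1, was called higher (log2 change 0.57, adjusted p = 0.0249 in limma). Microglia markers spanned 36.2 to 44.7 and 21.2 to 29.2 CPM (2 of 9 tested called higher, 9 of 9 positive). One of the 2, P2ry12, averaged 1.74 CPM with stereotypy, 0.564 CPM without and 0.732 CPM in controls. On average only the group where it was high reached the 1 CPM of the filter, so its call is not read as a result. Summed D2 neuron markers spanned 259 to 424 CPM with stereotypy and 597 to 1050 CPM without (limma, edgeR and DESeq2 called 0 of 5, although 5 had an unadjusted p under 0.05). Cortical excitatory markers spanned 2715 to 3629 and 3819 to 4622 CPM (1 of 6 called, the vesicular glutamate transporter Slc17a7, which was lower with stereotypy). Interneuron markers spanned 213 to 381 CPM with stereotypy and 321 to 483 CPM without (0 of 8 called in limma, 6 at an unadjusted p under 0.05, 0 by edgeR and 4 by DESeq2). Astrocyte markers spanned 645 to 672.5 and 452 to 567 CPM (3 of 12 called higher), and vascular markers 42.0 to 97.7 and 12.8 to 28.6 CPM (3 of 10 tested called higher). Among the vascular calls, Abcb1a averaged 2.59 CPM with stereotypy, 0.641 CPM without and 0.776 CPM in controls. Its call is not read as a result for the same reason as that of P2ry12. The part of these differences in the Pacsin values was not tested.

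For the comparison with control, marker sums were set beside Pacsin2. D1 neuron markers spanned 2186 to 2246 CPM with stereotypy, 1481 to 1836 CPM without stereotypy and 1763 to 2381 CPM in controls. Of 7 D1 markers limma and edgeR called 0 and DESeq2 called 3, with 3 at an unadjusted p under 0.05 in limma. Their median log2 change was -0.14 (3 positive). Interneuron markers spanned 213 to 381, 321 to 483 and 219 to 484 CPM (0 of 8 called by limma, edgeR or DESeq2, median -0.04, 4 positive). Astrocyte markers spanned 645 to 672.5 CPM with stereotypy, 452 to 567 CPM without stereotypy and 454 to 561 CPM in controls, a sum made up mostly of Slc1a2 and Slc4a4. Several less abundant astrocyte markers averaged above control in both TrkB-deleted groups, such as Aqp4 at 4.58, 2.501 and 1.44 CPM and Gfap at 3.76, 3.83 and 1.71 CPM with stereotypy, without stereotypy and in controls. D2 neuron markers spanned 259 to 424, 597 to 1050 and 443 to 1433 CPM, and cortical markers 2715 to 3629, 3819 to 4622 and 2747 to 4016 CPM. Oligodendrocyte markers spanned 1204 to 2147, 771 to 1753 and 587 to 1220 CPM, precursor markers 162 to 174, 169 to 186.5 and 197 to 228 CPM, microglia markers 36.2 to 44.7, 21.2 to 29.2 and 16.0 to 32.5 CPM, and vascular markers 42.0 to 97.7, 12.8 to 28.6 and 21.8 to 45.7 CPM. None of these sums was higher than every control in both TrkB-deleted groups. The precursor sum was lower than every control in both and was made up mostly of Cspg5, at 147.5, 157 and 201 CPM. At the level of single markers, 4 of 12 astrocyte markers, 1 of 9 tested microglia markers and 1 of 6 cortical markers were called higher in TrkB-deleted mice, while Cspg5, 1 of 6 precursor markers, and the smooth muscle gene Tagln, 1 of 10 tested vascular markers, were called lower. Of all tested genes 3.67% were called higher and 2.05% lower. A single call in a list of 6 to 10 markers lay near those shares. Most precursor and vascular markers nevertheless had a positive log2 change, with medians of 0.50 (5 of 6 positive) and 0.50 (9 of 10 positive). Microglia markers had a median of 0.02 (5 of 9 positive), cortical markers -0.13 (2 of 6) and D2 neuron markers -0.08 (1 of 5). The median was 0.62 over the 12 astrocyte markers (11 positive) and 0.62 over the 12 oligodendrocyte markers (12 positive, 0 called by limma, edgeR or DESeq2, 3 with an unadjusted p under 0.05), against 0.04 over all tested genes. The part of D1 neuron content and of other cell types in the Pacsin2 difference was not tested.

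Genes next to Pacsin2 were examined because no source used here says whether reads were counted by strand. Gm5417, a processed pseudogene inside the Pacsin2 span on the same strand, stood at 2.14 to 4.84 CPM over the 9 libraries and differed from control by -0.14 on the log2 scale (adjusted p = 0.713 in limma). Ttll1, a tubulin polyglutamylase subunit gene 19163 bases away, averaged 41.4 CPM with stereotypy, 53.3 CPM without stereotypy and 38.2 CPM in controls. Its log2 change in limma was 0.29 against control (adjusted p = 0.0556) and -0.36 with stereotypy against without (adjusted p = 0.0358). The latter call held in 3 of 9 fits that left out 1 library. Arfgap3, which regulates Golgi vesicle coats, changed by 0.23 (adjusted p = 0.354) and Mcat, a mitochondrial fatty acid synthesis enzyme, by -0.12 (adjusted p = 0.658) against control, both without passing in limma. None of these 4 tested neighbours within 100000 bases reached the size of the Pacsin2 difference. The lincRNA Gm17281, on the strand opposite to Pacsin3 and overlapping its start, stayed at or below 0.198 CPM.

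Genes that work with PACSIN proteins were taken from 7 overlapping lists of 148 symbols, of which 130 genes were tested. The lists were chosen with earlier results of these data known. Against control 4 of these rose and 7 fell in the TrkB-deleted mice (3.08% and 5.38%, with 3.67% and 2.05% over all tested genes). With stereotypy against without, 8 were higher and 8 lower (6.15% each, with 6.61% and 3.6% over all tested genes).

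Direct PACSIN partners, which include the dynamins, synaptojanin 1, N-WASP (Wasl), the actin nucleator Cobl and the EHD ATPases of recycling endosomes, gave no calls in limma. Against control limma, edgeR and DESeq2 called 0 of 19, of which 4 had an unadjusted p under 0.05. Of all tested genes limma called 5.72%, and with 19 genes 0 calls lay near that share. The median log2 change was 0.10 beside 0.04 for all tested genes, with a range of -0.33 to 0.66. With stereotypy against without, limma called 0 of 19, beside 10.2% of all tested genes (7 had an unadjusted p under 0.05, edgeR called 1 and DESeq2 called 2). Dnm1, the neuronal dynamin and the most abundant partner, averaged 904 ± 47.8 CPM with stereotypy, 1129 ± 75.6 CPM without stereotypy and 871 ± 98.4 CPM in controls (SD, n = 3 each). In limma it changed by 0.22 against control (adjusted p = 0.182) and -0.32 with stereotypy against without (adjusted p = 0.0648).

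The list of actin nucleation genes, which holds N-WASP, the WAVE complex and Arp2/3 subunits, was where most calls against control fell. Like the other lists, it was chosen with earlier results of these data known. In TrkB-deleted mice 7 of 25 fell (28%, beside 2.05% of all tested genes called lower), 0 rose and 18 did not pass. The median log2 change was -0.20 against 0.04 over all tested genes. Wipf3, a WASP-interacting protein, stood at 177, 157 and 178 CPM with stereotypy, 164, 158 and 174 CPM without stereotypy and 217, 396 and 302.5 CPM in controls. The controls varied widely but all exceeded the 6 TrkB-deleted libraries, and the log2 change was -0.82 (SE 0.15, adjusted p = 0.0110 in limma). Arpc2, a core Arp2/3 subunit, stood at 254, 236 and 235 CPM with stereotypy, 215, 213 and 217 CPM without stereotypy and 298, 313 and 277 CPM in controls, again without overlap, and changed by -0.37 (SE 0.07, adjusted p = 0.0106 in limma). Both calls held under all 16 alternatives. Wipf1, a relative of Wipf3, averaged 3.49, 2.52 and 4.85 CPM with stereotypy, without stereotypy and in controls and changed by -0.56 (adjusted p = 0.0350 in limma), a call lost without any 1 of 7 of the 9 libraries (adjusted p 0.0611 to 0.0895), all but stereotypy replicate 3 and no stereotypy replicate 3. Leaving out stereotypy replicate 2, control replicate 1 or no stereotypy replicate 1 brought the count of fallen genes to 2, and leaving out control replicate 3, stereotypy replicate 1 or no stereotypy replicate 2 to 3. It was 9 with median-of-ratios rescaling and with edgeR, 12 with DESeq2 and 3 without the filter on low values. Lower calls over all tested genes moved as well, from 281 to 361 with rescaling, 389 with edgeR, 673 with DESeq2 and 157 without the filter. The list's median stayed below 0 in all 16 alternatives.

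Among the other lists, clathrin coat and AP2 adaptor genes rose in 2 of 31 and fell in 0 against control. Of all tested genes limma called 3.67% higher and 2.05% lower. With lists of 6 to 31 genes, counts of 0 to 2 lay near those shares. Picalm, a clathrin assembly protein, stood at 189.5, 197 and 184 CPM with stereotypy, 143, 143 and 181 CPM without stereotypy and 123, 102 and 112 CPM in controls, and changed by 0.61 (SE 0.09, adjusted p = 0.00484 in limma). The AP2 subunit gene Ap2a2 changed by 0.32 (adjusted p = 0.0495 in limma), a call lost without any 1 library other than control replicate 2 (adjusted p 0.05399 to 0.1675) and also after rescaling (0.0834), and the groups overlapped. Other BAR-domain genes rose in 1 of 20 and fell in 0, the riser being Mtss1, which bends membrane outward. It stood at 26.2, 29.6 and 24.8 CPM with stereotypy, 28.9, 21.4 and 30.0 CPM without stereotypy and 8.70, 9.195 and 13.3 CPM in controls, and its log2 change of 1.30 (SE 0.15, adjusted p = 0.000999 in limma) exceeded that of Pacsin2. Other F-BAR genes rose in 1 of 15 and fell in 0. The riser, Arhgap29, averaged 3.99, 3.601 and 1.602 CPM with stereotypy, without stereotypy and in controls (log2 change 0.88, adjusted p = 0.0301 in limma), and its call was lost without any 1 of 6 libraries (adjusted p 0.0556 to 0.102), all but no stereotypy replicates 1 and 3 and control replicate 1. Caveolae genes gave 0 calls of 6 in limma, edgeR and DESeq2, with 0 at an unadjusted p under 0.05, and Cavin3, the most abundant, averaged 5.08, 7.12 and 6.75 CPM in the 3 groups. Endosomal recycling genes gave 0 of 24 (4 at an unadjusted p under 0.05, and 1 each by edgeR and DESeq2), with the most abundant, the Rab11 effector Rab11fip4, at 496, 601 and 530.2 CPM.

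With stereotypy against without, calls in these lists went in both directions. Of all tested genes limma called 6.61% higher and 3.6% lower. With lists of 6 to 31 genes, a count of 1 lay near those shares. The vesicle-coat adaptors Epn1, Ap2m1 and Ap2s1 were lower (3 of 31, 0 higher), with Epn1, epsin 1, averaging 286 ± 22.0 CPM in the group with stereotypy and 408 ± 12.5 CPM in the group without it (SD, n = 3 each, log2 change -0.51, adjusted p = 0.0175 in limma). Of the BAR genes 3 of 20 were lower, namely the presynaptic amphiphysin gene Amph (-0.61), the endophilin gene Sh3gl2 (-0.59) and Bin1 (-0.42), and Arfip1 was higher (0.57). Of the 15 F-BAR genes Fcho2 (0.80) and Fnbp1l (0.50) were higher. Trip10 (-0.997) was called lower, but it was tested only because its 3 libraries without stereotypy, at 1.79 to 3.598 CPM, passed the filter, while it stayed at or below 0.967 CPM with stereotypy and 0.552 CPM in controls. Since only the group where it was high passed the filter, its call, also lost without the filter, is not read as a result. Actin genes were higher in 3 of 25, the Arp2/3 subunit gene Actr3 (0.44) and the WAVE complex genes Abi1 (0.43) and Abi2 (0.41). The caveolar coat gene Cavin2 was higher (0.80, 1 of 6), and of 24 recycling genes Rab11fip2 was higher (0.34) and Rab11fip5 lower (-0.36). No gene of these lists was called in this comparison on leaving out replicate 2 or 3 with stereotypy or replicate 1 or 2 without it (Trip10 was then not tested in the last 2 cases), where limma called 1, 0, 0 and 0 of all tested genes (3248, 2848, 2915 and 3084 at an unadjusted p under 0.05). The neuronal and vascular marker differences given above lie in the same comparison, and their part in these calls was not tested.

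**Figure D3:**
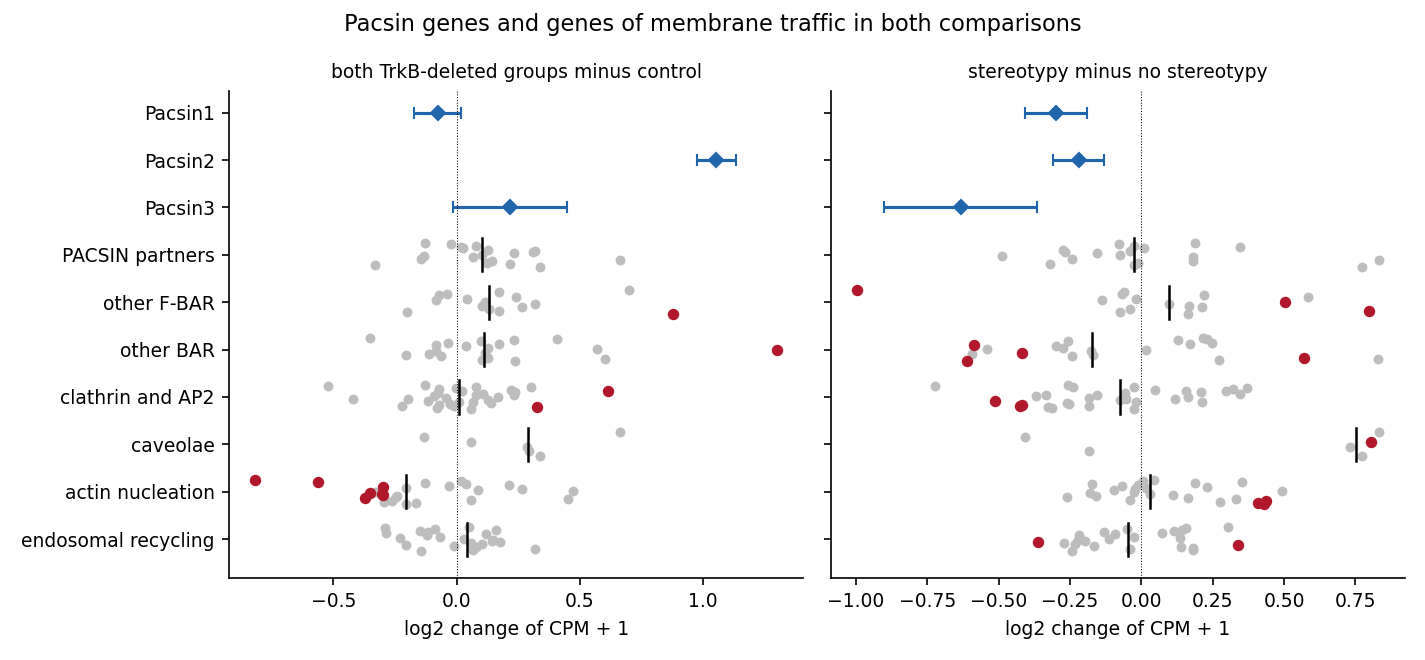
Change of log2(CPM + 1) (horizontal axes) for both TrkB-deleted groups minus control (left) and stereotypy minus no stereotypy (right). Diamonds are the Pacsin genes with bars of 1 SE, dots are tested genes of the 7 lists with those at an adjusted p under 0.05 in red, and black lines are list medians. On the left Pacsin2 stands at 1.05 and Pacsin1 at -0.08, and 7 actin genes in red lie below 0.

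The 8 protein-coding genes with at least 5 CPM on average whose profile over the 9 libraries lay nearest to that of Pacsin2 were found by the root mean square difference of log2(CPM + 1) values centred on each gene's mean. Since they were picked for this likeness, their differences from control carry no test. The nearest was Anxa11, a calcium-dependent membrane-binding annexin, at a distance of 0.12, with 13.0, 16.3 and 7.11 CPM with stereotypy, without stereotypy and in controls. Vasp, which promotes actin filament growth, followed at 0.12 with 5.91, 6.97 and 2.38 CPM, and Syne2, a nuclear envelope spectrin repeat protein, at 0.13 with 17.8, 19.9 and 8.05 CPM. Magee2, a MAGE family gene, lay at 0.13, Pgam2, the muscle form of a glycolytic mutase, at 0.16, Ltbp3, which binds latent TGF-beta, at 0.16, and Ifngr2, an interferon gamma receptor subunit, at 0.16. Pea15a, which holds ERK in the cytoplasm, was the most abundant of the 8, at a distance of 0.17 and with 185 ± 7.96 CPM with stereotypy, 222 ± 12.5 CPM without stereotypy and 84.2 ± 9.90 CPM in controls (SD, n = 3 each). In all 8 genes the 6 TrkB-deleted libraries lay above the 3 controls.

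**Figure D4:**
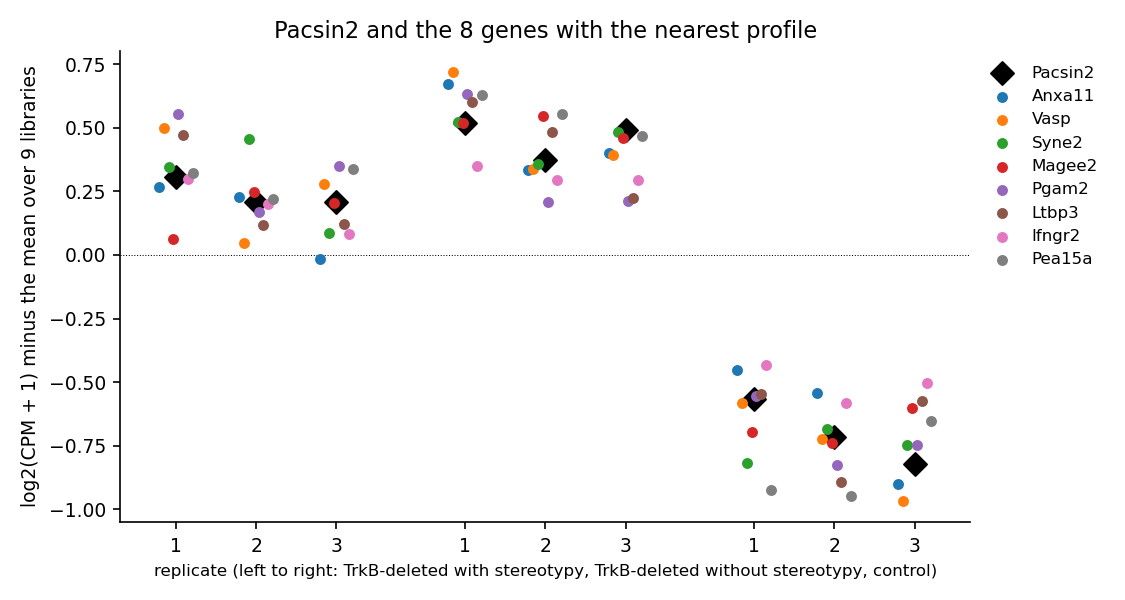
Values of log2(CPM + 1) minus each gene's mean over the 9 libraries (vertical axis) for Pacsin2 (black diamonds) and the 8 genes with the nearest profile (colored dots), by library, with the TrkB-deleted groups on the left and the middle and the controls on the right. All controls lie below all TrkB-deleted libraries for each of the 9 genes, and the genes were picked for their likeness to Pacsin2.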

How the data were processed

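RiboTag RNA-seq of 9 libraries (3 with stereotypy, 3 without, 3 controls) was used. The authors deposited CPM per Ensembl gene. Reads were aligned with TopHat to GRCm38, per the submitters' processing notes, while for the read counter, annotation and strand the answer is not given in the sources used here. All values above 0 (100%) were whole multiples of 1 read within 0.1 reads, so whole reads were recovered. A count of 0 allows 0.0739 to 0.111 CPM (3 reads), for counting error only. GENCODE M21 gave symbols for 99.1% of identifiers. Library pairs differed by at least 12.1 in chi-square per degree of freedom, so none counted as a duplicate.

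Genes with at least 1 CPM in 3 libraries (13695) were fitted as log2(CPM + 1), a scale on which low genes change less, in limma 3.58.1 (R 4.3.3) with a mean per group and a trended variance, leaving 6 residual degrees of freedom. P-values were Benjamini-Hochberg adjusted over all tested genes, with a threshold of 0.05. They set each difference against the spread between libraries within the groups, moderated over genes. The labels do not say whether a library is 1 mouse. edgeR 4.0.16 and DESeq2 1.42.0 on the recovered reads were alternatives, as were other pseudocounts, no filter, rescaling, a replicate block and leaving out each library. The fits were tested on simulated data. Named list genes are the called members with the largest change, up to 3 per direction and list, or the most abundant member where none was called. Tested genes within 100 kb of Pacsin2 and the 8 nearest profiles (no model or clone names) are also named. Members and lists were chosen with earlier results of these data known. Of the planned steps, a comparison of the Pacsin proteins was not made here.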

Additional observations from a re-analysis of the deposited data

Results flagged for a closer look

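Several genes differed between TrkB-deleted mice with and without stereotypy at an adjusted p under 0.05 in limma, which tested that difference itself. With both groups set against the same controls, it is also the difference between their changes from control. Each call named here was lost on leaving out replicate 2 or 3 with stereotypy or replicate 1 or 2 without it. Trip10 was not tested when a library without stereotypy was left out. Ntrk2 differed by 1.05 on the log2 scale, with an adjusted p of 0.061 to 0.0825 in limma in those fits. Among membrane-shaping genes the differences were 0.80 for Fcho2, 0.50 for Fnbp1l, -0.997 for Trip10, 0.57 for Arfip1, -0.61 for Amph, -0.59 for Sh3gl2 and -0.42 for Bin1. Trip10 was tested only through its level without stereotypy, and its call was lost without the filter on low values. Without that filter the calls of Arfip1, Sh3gl2, Bin1, Ap2s1, Cavin2, Actr3, Abi2, Rab11fip2 and Rab11fip5 were lost too. Among coat genes they were -0.51 for Epn1, -0.43 for Ap2m1 and -0.42 for Ap2s1, and Cavin2 differed by 0.80. Among actin genes they were 0.44 for Actr3, 0.43 for Abi1 and 0.41 for Abi2, and among recycling genes 0.34 for Rab11fip2 and -0.36 for Rab11fip5. Ttll1, next to Pacsin2, differed by -0.36.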

How the results depend on the processing

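The Pacsin2 difference from control stayed between 0.99 and 1.12 on the log2 scale in every alternative run, and 0 of 3 Pacsin genes was called with stereotypy against without in any of them other than Pacsin1 without control replicate 1. Leaving out 1 library gave log2 changes of -0.34 to -0.26 for Pacsin1, -0.26 to -0.19 for Pacsin2 and -0.77 to -0.38 for Pacsin3 in that comparison. Without the filter on low values limma called 235 genes higher and 157 lower against control (2 and 3 in the pathway lists) and 419 and 153 with stereotypy against without (4 and 4 in the lists). DESeq2 called 673 lower against control (14 in the lists) and 1092 lower with stereotypy against without (17 in the lists). Leaving out 1 library gave 253 to 448 higher and 161 to 284 lower against control (2 to 3 and 2 to 6 in the lists), and 0 to 1214 higher and 0 to 774 lower with stereotypy against without (0 to 10 and 0 to 11 in the lists). The cause of these shifts was not tested. With the replicate block 880 genes were called against control and 1788 with stereotypy against without, and Pacsin2 changed by -0.22 with stereotypy against without (adjusted p = 0.0965 in limma). Deviations of same-numbered libraries correlated at -0.08 to 0.41, and 6 of 9 libraries lay closest to their own number. The main fit did not take the numbers as pairs, and whether same-numbered libraries share a batch was not tested. Of 1242 values of single genes over the alternatives, 1098 kept their call status, 130 lost a call, 14 gained one and 0 reversed. The 1242 values include genes not called in the main fit, which had no call to lose. For Pacsin3 the counting error of 4.39% to 9.37% was below the spread between libraries of a group (20.4% to 39.5%).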
